A study of Mus musculus with 8 samples.

Results

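The Cyp2c cytochromes are a family of cytochrome P450 enzymes, and 10 of its genes were followed here in mouse liver: Cyp2c29, Cyp2c37, Cyp2c38, Cyp2c39, Cyp2c40, Cyp2c44, Cyp2c50, Cyp2c54, Cyp2c55 and Cyp2c70. They were found on the arrays by gene name or RefSeq accession, which gave 22 probes of the 149782 non-control probes that the deposited files list. The 22 comprised 12 catalogue probes and 10 probes with a custom identifier, and 9 of the 10 genes had at least 2 probes; Cyp2c50 had only a custom probe. Total liver RNA of 8 male mice was labelled with Cy3 and hybridised to 1 Agilent array per mouse. The control group is labelled as normal mice, with no treatment named (n = 4). The other group (n = 4) received oxaliplatin, a platinum drug, by intraperitoneal injection once weekly for 6 weeks, which the series' title presents as a mouse model of sinusoidal obstruction in the liver, an injury of its small vessels. The labels name no strain, age, dose or genetic change, and not whether the controls received vehicle. The design text calls the 4 arrays of each group biological replicates.

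Cytochrome P450 enzymes of the Cyp2c family sit in the endoplasmic reticulum of hepatocytes, where they take electrons from P450 reductase to oxidise drugs, retinoids and polyunsaturated fatty acids. Several of them turn arachidonic acid into epoxides and hydroxylated products, and Cyp2c70 acts on bile acids. Their transcription in mouse liver is known to depend on nuclear receptors such as CAR and PXR, on liver-enriched factors such as HNF4A, and for several members on the sex-specific pattern of growth hormone. The genes arose by repeated duplication, so a short probe can read more than 1 of them.

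How alike the transcripts are can be seen in 3 catalogue probes that cover the same stretch, starting at base 778, 800 and 854 of their transcripts per the files. Their sequences are shown because they bear on how far a signal belongs to 1 gene. Over the 43 bases that the following probes share, capitals mark the 13 positions at which the 3 are not all alike.
Cyp2c54 (A_52_P154580): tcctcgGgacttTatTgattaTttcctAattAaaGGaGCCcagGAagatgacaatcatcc
Cyp2c38 (A_51_P342206): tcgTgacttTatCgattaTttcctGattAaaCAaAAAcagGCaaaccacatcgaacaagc
Cyp2c40 (A_52_P200121): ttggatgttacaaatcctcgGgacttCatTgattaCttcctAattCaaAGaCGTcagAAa
The catalogue probe of Cyp2c39, which behaved differently from the custom probe of that gene, starts at base 1405 and has no such counterpart among the member probes.
Cyp2c39 (A_51_P304109): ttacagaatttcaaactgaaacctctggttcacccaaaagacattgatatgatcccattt
Among all 28 probes of Cyp2c genes on the array, custom probes of Cyp2c40 and Cyp2c68 agreed at 58 of 59 overlapping bases, and those of Cyp2c40 and Cyp2c69 at 54 of 58. Custom probes of Cyp2c37 and Cyp2c54 agreed at 37 of 41. The files themselves match the catalogue probe A_51_P502599 of Cyp2c40 to 4 Cyp2c genes, A_52_P200121 of Cyp2c40 to 2, and A_52_P625249 of Cyp2c37 to 2 (Cyp2c37 and Cyp2c50). Each probe is therefore reported for itself.

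Levels are log2 signals relative to the 75th percentile of the array's detected probes, so 0 is the level of a bright probe and 1 unit is a doubling. Levels of different probes are not comparable. Differences are the mean of the arrays labelled oxaliplatin minus the mean of the control arrays, and a probe was called where limma's moderated test gave an adjusted p below 0.05 (Benjamini-Hochberg over the 54636 probes tested). All 22 member probes were bright enough to be tested. Of each group, all 4 arrays lay on 1 slide, so slide, scan and treatment cannot be told apart. Oxaliplatin arrays 1 and 2 carried another run name than the remaining 6 arrays. Within groups, arrays correlated at r between 0.962 and 0.990 across probes. None of the 8 arrays showed Xist well above background with any of its 4 probes, and all 8 showed the Y-linked gene Kdm5d above it with both of its probes, as in male tissue. Of 22 tested target genes of p53, the transcription factor that DNA damage activates, 12 were lower and none higher on the arrays labelled oxaliplatin (limma; at an unadjusted p below 0.05, 16 lower and 1 higher), such as Phlda3 (-3.46 ± 0.18, adjusted p = 0.000686, limma) and Ccng1 (-1.47 ± 0.11, adjusted p = 0.00117, limma). Drugs that damage DNA, platinum compounds among them, are known to raise these targets, so the direction seen here is the opposite of the usual one. Whether the group labels are right was not tested. Every direction below follows the labels, and the sign of every difference would turn if they were exchanged. Median centring of the arrays lowers all differences by 0.74, which turns positive differences below that size, and scaling over all probes lowers them by 0.11; other directions below are relative to the main scale. In whole liver, fewer cells of a type and less RNA per cell cannot be told apart.

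Of the 22 member probes, 3 fell and none rose on the arrays labelled oxaliplatin, and 19 were not called (limma; at an unadjusted p below 0.05, 4 were higher and 5 lower). Over all probes tested, 16.2% were called after adjustment, 10.0% as higher and 6.20% as lower. The share of all probes below the unadjusted threshold is not given, here or for the gene lists. The unadjusted counts therefore have no background beside them and are not read as an excess. The probes that fell belonged to Cyp2c38 (both catalogue probes) and Cyp2c39 (the custom probe). The median difference over the 22 was 0.20, against 0.02 over all probes tested, with 14 differences above 0 and 8 below. The groups did not overlap for 3 member probes on the higher side and 4 on the lower side. Over all probes tested this held for 24.9%, 14.1% on the higher and 10.9% on the lower side.

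**Figure D1:**
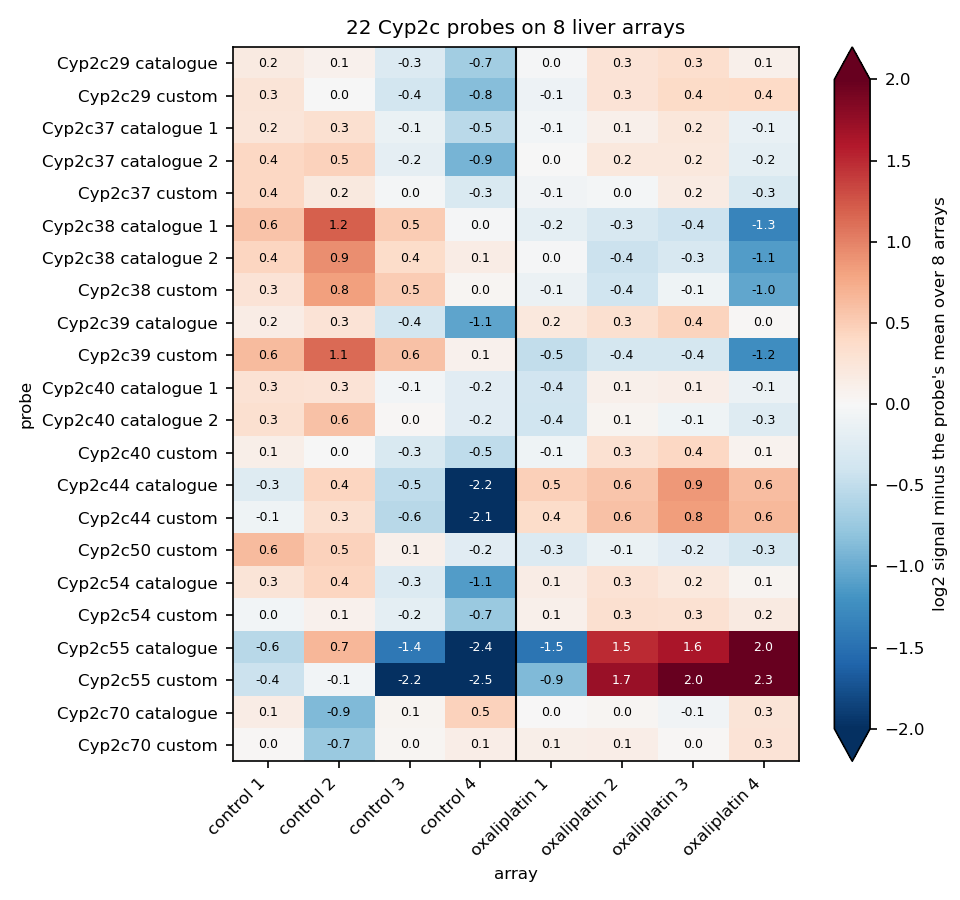
Each cell gives the log2 signal of 1 Cyp2c probe (vertical axis) on 1 array (horizontal axis) minus that probe's mean over the 8 arrays, with colours cut at 2 units. The probes of Cyp2c38 and the custom probe of Cyp2c39 are high on the control arrays, those of Cyp2c44 are lowest on control array 4, and those of Cyp2c55 are high on oxaliplatin arrays 2, 3 and 4.

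Cyp2c38, an arachidonic acid epoxygenase, was lower on every array labelled oxaliplatin than on any control array with each of its 3 probes. The catalogue probe A_51_P342206, which joins exons (mm9 chr19:39479273-39510583, a span of 31311 bases), read -1.87, -1.24, -1.94 and -2.48 on control arrays 1 to 4 and -2.64, -2.76, -2.87 and -3.77 on oxaliplatin arrays 1 to 4. It fell by 1.12 on the log2 scale, with an SE of 0.31, to 45.9% of the control level (95% interval of the difference -1.84 to -0.41, adjusted p = 0.0439, limma). The catalogue probe A_52_P468564 (mm9 chr19:39464438-39464497) read -1.63, -1.13, -1.69 and -1.92 on the controls and -2.09, -2.49, -2.38 and -3.17 on the oxaliplatin arrays. It fell by 0.94 with an SE of 0.25 (adjusted p = 0.0384, limma). The custom probe gave -0.88, -0.33, -0.64 and -1.11 against -1.27, -1.56, -1.24 and -2.20, a difference of -0.82 ± 0.25 that missed the threshold (adjusted p = 0.0549, limma). Control array 2 was the highest array and oxaliplatin array 4 the lowest with each of the 3 probes. The 3 differences lay within 0.30 of each other, and the gaps between these probes changed by -0.18, -0.30 and -0.12 between the groups (exact permutation p from 0.114 to 0.257, two-sided, before adjustment). With 1 value per gene the call depended on the choice: with the probes averaged, Cyp2c38 fell by 0.96 with an SE of 0.27 (adjusted p = 0.0487 over genes, limma), whereas its brightest probe, the custom one, was not called at -0.82 (adjusted p = 0.0562 over genes, limma).

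The calls of Cyp2c38 sat close to the threshold. The call of A_51_P342206 was lost when any 1 array other than control 4 was left out, at adjusted p from 0.0535 to 0.0917 (limma), and that of A_52_P468564 when any 1 array other than control 4 and oxaliplatin 1 was left out, at 0.066 to 0.0789. Against oxaliplatin arrays 3 and 4 alone, which share the run name of the controls, the differences were -1.43 and -1.18 (adjusted p = 0.0793 and 0.0688, limma). With all 8 arrays and the run name as a covariate neither catalogue probe was called (adjusted p = 0.0595 and 0.0567, limma). Each of the 3 probes kept its direction under every alternative run.

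Cyp2c39, known for its hydroxylation of retinoic acid, gave 2 different answers. Its custom probe, CUST_68739_PI435794180, read 2.77, 3.26, 2.72 and 2.22 on the control arrays and 1.63, 1.78, 1.77 and 0.89 on the oxaliplatin arrays. The groups did not overlap, and the signal fell by 1.22 on the log2 scale with an SE of 0.26, to 42.8% of control (95% interval -1.83 to -0.62, adjusted p = 0.0194, limma). The catalogue probe A_51_P304109 (mm9 chr19:39642568-39642627) read 2.22, 2.33, 1.70 and 1.01 on the controls and 2.28, 2.38, 2.51 and 2.10 on the oxaliplatin arrays. These groups overlapped, and the difference of 0.50 ± 0.28 was not called (adjusted p = 0.239, limma). The catalogue level minus the custom level was -0.92 ± 0.28 on the controls and 0.80 ± 0.28 on the oxaliplatin arrays (SD, n = 4 each). This gap changed by 1.72, the widest change among the 15 pairs of probes to the same member, and its exact permutation p of 0.0286 (two-sided) is the smallest that 4 against 4 arrays can give; adjusted over the 15 pairs it was 0.0858. With both probes averaged, the gene stood at -0.36 ± 0.26 (adjusted p = 0.368 over genes, limma). The files list 2 RefSeq accessions on both the Cyp2c38 and the Cyp2c39 catalogue probes. Of these accessions 0 are named in the RefSeq reference used here, and each of these catalogue probes was matched to 1 gene, its own. Whether either Cyp2c39 probe also reads Cyp2c38 was not tested.

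The fall of the custom Cyp2c39 probe was called in 19 of the 21 alternatives run. It was not called without control array 3 (-1.23, adjusted p = 0.0513, limma) or with the first run name alone (-1.41, adjusted p = 0.0661, limma). All Cyp2c genes were left out of a search among 13906 genes for those whose 8 values followed this probe. The closest of the rest were Slco1a4, a bile salt and organic anion carrier, and Sgk1, a kinase that glucocorticoids induce. Their deviations from their own means differed from those of Cyp2c39 by 0.16 and 0.23 log2 units per array on average. Slco1a4 itself stood at -1.06 (adjusted p = 0.0697, limma) and Sgk1 at -0.98 (adjusted p = 0.0111, limma).

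**Figure D2:**
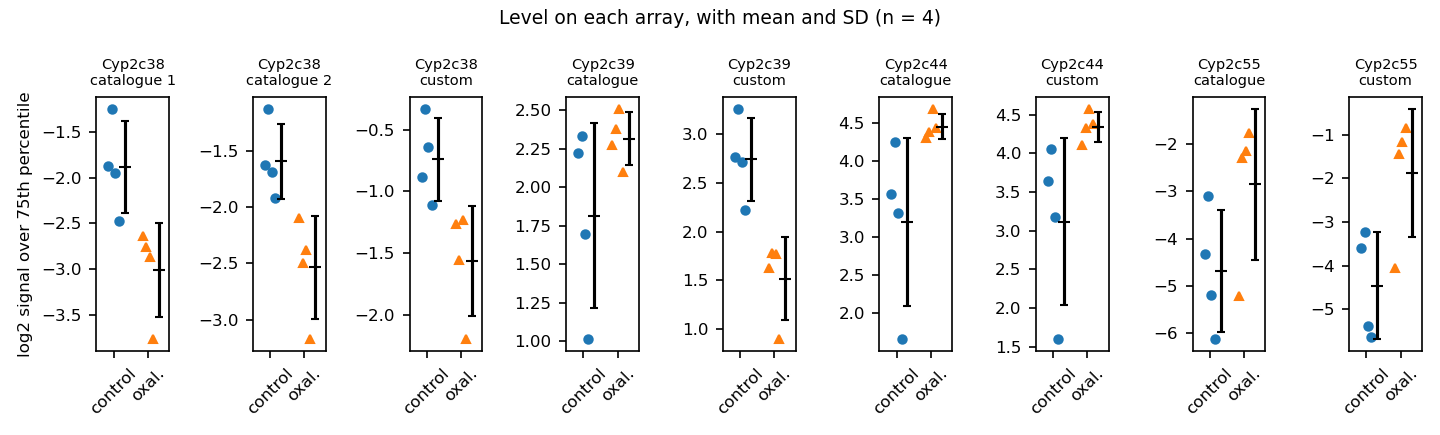
Points are the log2 signals over the array's 75th percentile on single arrays (circles, control; triangles, oxaliplatin; 4 each), and bars give the mean and SD; each panel is 1 probe with its own vertical scale. The groups are apart for the 3 Cyp2c38 probes, the custom Cyp2c39 probe and both Cyp2c44 probes, and overlap for the catalogue Cyp2c39 probe and both Cyp2c55 probes.

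The promoters of Cyp2c38 and Cyp2c39 are shown because probes of both genes fell. In RefSeq (GRCm38.p6) Cyp2c39 has 2 start sites in the promoter table, and the one beyond Cyp2c38 is printed. Both stretches hold the 250 bases before the start site, 5′ to 3′ on the gene's strand. They were aligned with free ends, and capitals mark the bases that are unmatched within the aligned stretch. The last bases of Cyp2c38 and the first of Cyp2c39 lie outside that stretch and have no partner, though they are in lower case.
Cyp2c38 (chr19:39463076-39463325, minus strand): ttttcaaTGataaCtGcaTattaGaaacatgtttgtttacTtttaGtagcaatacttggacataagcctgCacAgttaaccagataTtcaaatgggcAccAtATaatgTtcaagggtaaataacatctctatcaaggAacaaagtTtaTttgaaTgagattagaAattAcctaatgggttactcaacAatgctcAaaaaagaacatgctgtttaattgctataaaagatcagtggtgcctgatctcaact
Cyp2c39 (chr19:39510572-39510821, plus strand): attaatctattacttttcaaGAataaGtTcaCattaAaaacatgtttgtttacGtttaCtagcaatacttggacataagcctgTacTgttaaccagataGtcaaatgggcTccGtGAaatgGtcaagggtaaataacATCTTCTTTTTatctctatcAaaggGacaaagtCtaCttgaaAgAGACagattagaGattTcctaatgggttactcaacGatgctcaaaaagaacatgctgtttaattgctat
They matched at 198 of 238 aligned positions (83.2%). Among the 9 member promoters in the table (2 of Cyp2c39, none for Cyp2c44 or Cyp2c54), Cyp2c37 and Cyp2c50 matched at 86.3%. The 2 promoters of Cyp2c39 matched each other at 89.7%, and the one not printed matched Cyp2c38 at 80.4%. The promoter of Cyp2c29, a gene with no called probe, matched the printed Cyp2c39 promoter at 79.5% and that of Cyp2c38 at 74.8%. The likeness is thus not particular to the genes whose probes fell. The letters CAAAGTCCA, an HNF4A motif searched on both strands, were in 2 of the 9 (Cyp2c40 and Cyp2c70) and in 0.384% of 32851 promoters of the same length. The letters TATAAA were in 4 of 9, against 12.4% of all. The STAT5 pair TTCNNNGAA was in 0 of 9, against 7.02%, and the C/EBP letters TTGCNNAA in 1 of 9 (Cyp2c37), against 9.56%. A match describes the letters and not a bound site.

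Cyp2c44, listed as Cyp2c23 in the RefSeq table, is an arachidonic acid epoxygenase whose gene lies apart from the main cluster (catalogue probe A_51_P209782, mm9 chr19:44079535-44079594). This probe read 3.57, 4.24, 3.31 and 1.65 on the controls and 4.30, 4.38, 4.68 and 4.43 on the oxaliplatin arrays. The oxaliplatin arrays were close together and all above the controls, which ranged widely through control 4. The difference of 1.25 ± 0.47, or 2.38-fold, was not called (95% interval 0.18 to 2.33, adjusted p = 0.104, limma). The custom probe, which overlaps the catalogue probe by 39 bases and is no independent reading, gave 3.64, 4.06, 3.18 and 1.60 against 4.10, 4.32, 4.57 and 4.37, a difference of 1.23 ± 0.47 (adjusted p = 0.105, limma). Without control array 4 the catalogue probe's difference was 0.74 (adjusted p = 0.0707, limma), and without control array 2 it was 1.60 and called (adjusted p = 0.0457, limma).

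Cyp2c55, a fatty acid hydroxylase that CAR and PXR activators induce in liver, was dim and had the widest spread of the members. Its custom probe read -3.60, -3.23, -5.38 and -5.65 on the controls and -4.05, -1.45, -1.17 and -0.84 on the oxaliplatin arrays. Oxaliplatin array 1 lay among the controls, whereas the other 3 lay above all of them. The difference of 2.58 ± 0.81, or 5.99-fold, was not called (95% interval 0.75 to 4.42, adjusted p = 0.0609, limma). The catalogue probe A_51_P447785 (mm9 chr19:39116674-39116733), above background on 3 of 4 arrays in each group, read -4.32, -3.10, -5.20 and -6.14 against -5.22, -2.28, -2.13 and -1.75, a difference of 1.84 ± 0.86 (adjusted p = 0.174, limma). Without oxaliplatin array 1 both probes were called, at 3.31 (adjusted p = 0.0198, limma) and 2.63 (adjusted p = 0.0392, limma).

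Cyp2c29, an arachidonic acid epoxygenase, showed overlapping groups. Its catalogue probe A_51_P103706 (mm9 chr19:39403642-39403701) read 4.76, 4.66, 4.31 and 3.88 on the controls and 4.55, 4.86, 4.91 and 4.67 on the oxaliplatin arrays, a difference of 0.35 ± 0.20 (adjusted p = 0.257, limma). The custom probe ran from 4.08 to 5.19 on the controls and from 4.83 to 5.32 on the oxaliplatin arrays, a difference of 0.48 ± 0.24 (adjusted p = 0.195, limma).

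Cyp2c37, Cyp2c50 and Cyp2c54 metabolise arachidonic and linoleic acid. The 3 probes of Cyp2c37 differed by 0.06 ± 0.20, 0.12 ± 0.29 and -0.13 ± 0.18 (adjusted p = 0.863, 0.812 and 0.643, limma), with overlapping groups. The 95% intervals were -0.39 to 0.51, -0.56 to 0.79 and -0.53 to 0.27. The single probe of Cyp2c50 read 4.32, 4.15, 3.80 and 3.46 on the controls and 3.42, 3.55, 3.46 and 3.34 on the oxaliplatin arrays. Only control 4 fell within the range of the oxaliplatin arrays, and the difference of -0.49 ± 0.18 was not called (adjusted p = 0.103, limma). Without control array 4 it was -0.65 and called (adjusted p = 0.0302, limma). The custom probe of Cyp2c54 read 4.99, 5.11, 4.85 and 4.29 against 5.14, 5.35, 5.33 and 5.22. These groups did not overlap, but the difference of 0.45 ± 0.18 was not called (adjusted p = 0.116, limma). The catalogue probe of Cyp2c54 differed by 0.35 ± 0.31 (adjusted p = 0.46, limma), ranging from 0.00 to 1.55 on the controls and from 1.18 to 1.40 on the oxaliplatin arrays. Its sequence matched A_52_P200121 of Cyp2c40 at 38 of 46 overlapping bases and A_51_P342206 of Cyp2c38 at 40 of 57. Whether it reads either gene was not tested.

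Cyp2c40, which makes hydroxylated arachidonic acid, had 3 probes that pointed both ways. The catalogue probes differed by -0.14 ± 0.17 and -0.34 ± 0.19 (adjusted p = 0.599 and 0.239, limma) and the custom probe by 0.35 ± 0.17 (adjusted p = 0.188, limma). The catalogue probe matched to 4 genes exceeded the custom probe by 1.53 ± 0.05 on the controls and by 1.03 ± 0.06 on the oxaliplatin arrays (SD, n = 4 each), without overlap. The exact permutation p of this change of -0.49, of the changes of -0.70 and 0.21 in the remaining pairs of Cyp2c40 probes, and of a change of -0.74 between the Cyp2c55 probes was 0.0286 each, and 0.0858 adjusted over the 15 pairs. The close relatives Cyp2c68 and Cyp2c69, read by custom probes nearly identical to that of Cyp2c40, differed by 0.20 ± 0.18 and 0.05 ± 0.47 (adjusted p = 0.468 and 0.95, limma). The 4 probes of Cyp2c65 and Cyp2c66, which are known from the gut, were above background on too few arrays to be tested.

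Cyp2c70, the enzyme that makes muricholic acids from chenodeoxycholic acid in mice, was the only member with control array 2, not control array 4, at the bottom of the control group. Its catalogue probe A_51_P134142 (mm9 chr19:40227969-40228028) read 5.69, 4.67, 5.61 and 6.01 on the controls and 5.55, 5.58, 5.47 and 5.81 on the oxaliplatin arrays. The difference of 0.11 ± 0.26 was not called (95% interval -0.49 to 0.71, adjusted p = 0.796, limma). The custom probe read 5.15, 4.37, 5.16 and 5.25 against 5.25, 5.25, 5.15 and 5.40, a difference of 0.28 ± 0.20 (adjusted p = 0.346, limma).

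**Figure D3:**
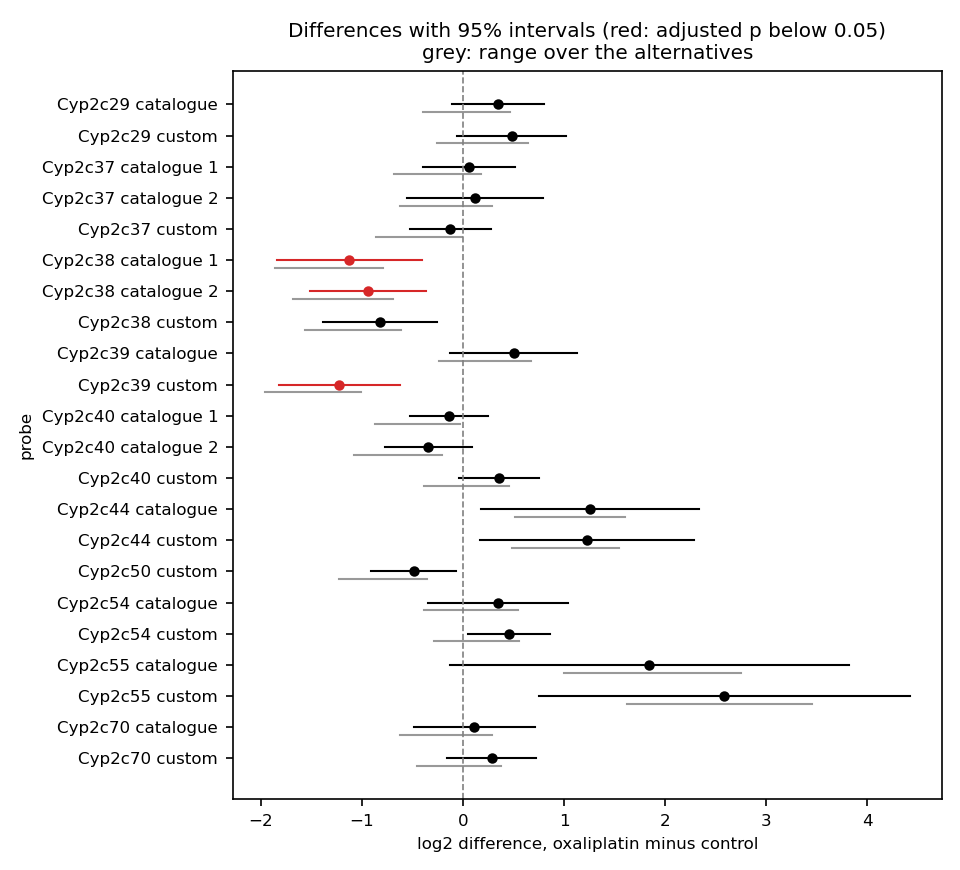
Points and coloured lines give the log2 difference (oxaliplatin minus control, 4 arrays each) of each member probe with its 95% interval, red where the adjusted p was below 0.05; the grey lines below them span the values under the alternatives, whose low ends come mostly from median centring. The 3 red probes belong to Cyp2c38 and Cyp2c39, and the widest intervals to Cyp2c55.

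The controls differed among themselves in a way that most members shared. Control array 4 was the lowest control for 20 of the 22 member probes, against 32.5% of all tested probes, and the highest for both Cyp2c70 probes. Control array 2 was the highest control for 14. Among the oxaliplatin arrays, array 1 was the lowest for 10 probes and array 4 for 10. The mean level of 14 genes known from pericentral hepatocytes, the zone around the central vein in which many P450 enzymes are most abundant, was 0.87 on control array 4, 1.87 to 2.02 on the other controls and 1.78 to 2.21 on the oxaliplatin arrays. The mean of 15 periportal genes was 4.31 on control array 4, 4.47 to 4.57 on the other controls and 4.48 to 4.61 on the oxaliplatin arrays. A low mean on control array 4 was not particular to these lists. Stellate cell markers read -1.74 there (-1.07 to -0.61 on the other controls) and lymphocyte markers -4.21 (-3.52 to -3.29). Control array 4 was instead the highest control for the means of Kupffer cell (1.87), erythroid (1.92) and neutrophil markers (-0.84). The part of this array in the member differences beyond the values given without it was not tested.

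Genes around the Cyp2c enzymes were counted by their brightest tested probe. Of 13906 genes, 9.64% were called higher and 5.88% lower, with a median difference of 0.02. Of the 15 genes for electron supply and haem synthesis, 1 rose, Cyb5r3, the cytochrome b5 reductase (0.77 ± 0.19, adjusted p = 0.0319, limma), and the median was 0.12. The 2 other probes of Cyb5r3, at 0.52 and 0.68, were not called (adjusted p = 0.166 and 0.111, limma). Alad of the same list stood at 0.15 by its brightest probe, but its other probe was called at 2.35 (adjusted p = 0.0120, limma). With 1 array left out 0 to 1 gene of this list was higher, and 0 with the first run name alone. Of 20 regulators of Cyp2c transcription, 1 rose and 1 fell, with a median of 0.16. Nr1i3, which encodes CAR, fell by 0.77 with an SE of 0.15 from 2.43 ± 0.16 to 1.67 ± 0.23 (SD, n = 4 each; adjusted p = 0.0127, limma), and its other probe stood at -0.60. Foxa1, a liver-enriched pioneer factor, rose by 0.94 with an SE of 0.24 (adjusted p = 0.0345, limma), although its groups overlapped. Nr1i2, which encodes PXR, stood at 0.29 ± 0.16 and Hnf4a at 0.20 ± 0.13 (adjusted p = 0.242 and 0.289, limma). The other probe of Nr1i2 stood at 0.15, whereas the 3 other probes of Hnf4a stood below 0, at -0.08, -0.32 and -0.23.

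Of 22 further target genes of CAR and PXR, 7 fell, none rose (at an unadjusted p below 0.05, 10 were lower and 3 higher), and the median was -0.42. With 1 array left out 4 to 6 fell, the fewest without control array 3 or 4 or oxaliplatin array 3 or 4 (4 each), and 2 fell with the first run name alone. The 3 with the smallest adjusted p were the cytochromes Cyp2b9 (-3.84 ± 0.55, adjusted p = 0.00535), Cyp2b13 (-3.77 ± 0.59, adjusted p = 0.00688) and Cyp2b10 (-2.97 ± 0.49, adjusted p = 0.00821, all limma). The groups did not overlap for any of them, as for 25.9% of all genes. Cyp2b10 is the classical CAR target, and Cyp2b9 and Cyp2b13 are known as female-specific genes. Of 12 genes of growth hormone signalling to sex-biased P450 genes, 2 fell and 1 rose, with a median of 0.23. Cux2, a female-specific repressor, fell by 1.78 with an SE of 0.26 (adjusted p = 0.00548, limma), and Trim24, a transcriptional cofactor, by 1.32 with an SE of 0.20 (adjusted p = 0.00669, limma). Stat5a rose by 0.74 with an SE of 0.20 (adjusted p = 0.0426, limma). Its call was lost without control array 1, 3 or 4, without oxaliplatin array 2, 3 or 4, and with the first run name alone. In each of these fits 0 genes of the list were higher and 2 lower.

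**Figure D4:**
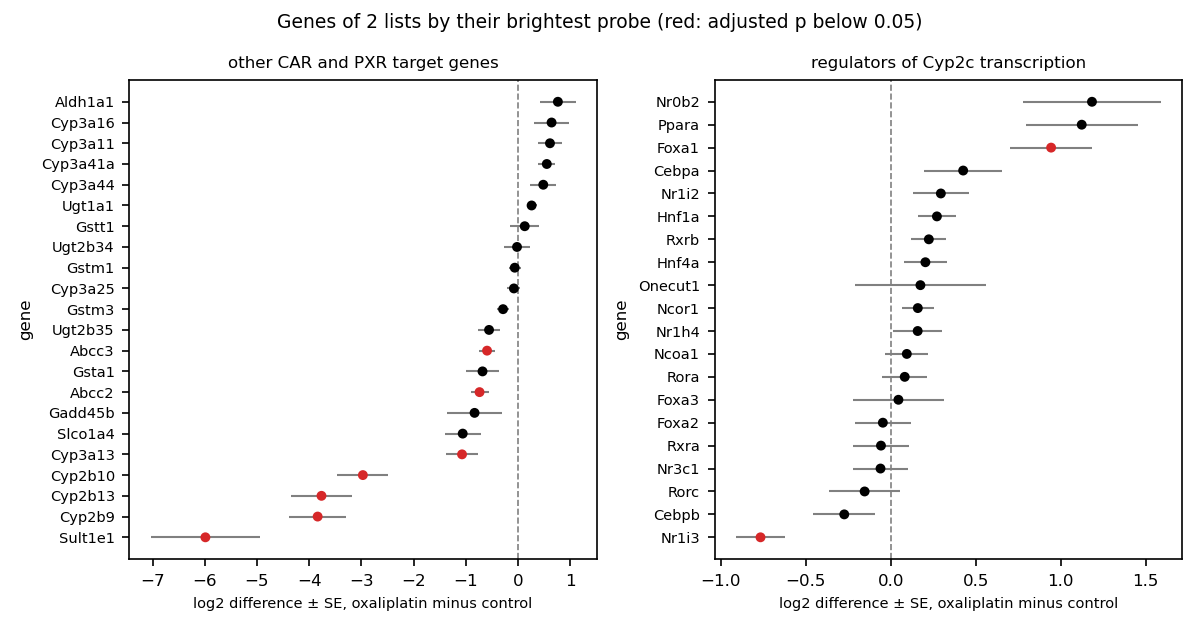
Each point is the log2 difference (horizontal axis, oxaliplatin minus control, 4 arrays each) of 1 gene's brightest probe with its SE; the left panel holds the 22 further CAR and PXR target genes and the right panel the 20 regulators, red where the adjusted p was below 0.05. On the left 7 genes are red, all below 0; on the right Nr1i3 is red below 0 and Foxa1 above 0.

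Of 16 genes of fatty acid epoxide and eicosanoid metabolism, 6 rose and 1 fell, with a median of 0.67. The fatty acid hydroxylases Cyp4a12b and Cyp4a12a, the latter known as male-specific, rose by 3.50 ± 0.60 and 3.36 ± 0.66 (adjusted p = 0.00908 and 0.0142, limma), although the other probe of Cyp4a12b stood at 1.32. Fabp1, the liver fatty acid binding protein, rose by 1.39 ± 0.30 (adjusted p = 0.0199, limma). Of 13 genes of bile acid synthesis, in which Cyp2c70 takes part, 2 rose and 2 fell, with a median of 0.26. Cyp7b1, the oxysterol hydroxylase, rose by 1.98 ± 0.37 (adjusted p = 0.0127, limma), and Cyp27a1 by 0.56 ± 0.15 (adjusted p = 0.0362, limma) with its other probe at -0.04. Cyp39a1 fell by 1.29 with an SE of 0.29 (adjusted p = 0.0213, limma) and Acox2 by 0.56 with an SE of 0.14 (adjusted p = 0.0299, limma).

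Hepatocytes are the main known site of Cyp2c expression, and 7 of 14 hepatocyte markers rose and none fell (at an unadjusted p below 0.05, 8 and 0), with a median of 0.32. Their mean level was 5.48 to 5.68 on the controls and 5.94 to 6.07 on the oxaliplatin arrays, and Alb rose by 0.67 ± 0.10 (adjusted p = 0.00548, limma), a direction that median centring turns (-0.070), as it does for Cyp2e1. The median of the hepatocyte list was 0.02 with quantile normalization and 0.05 with the series matrix values, with 3 markers higher in each. With the first run name alone 1 was higher, and with 1 array left out 4 to 7, the fewest without control array 3 or oxaliplatin array 3 (4 each). Of pericentral markers 1 of 14 rose (Cyp2e1, 0.54 ± 0.09, adjusted p = 0.00908, limma), and of 15 periportal markers 3 rose and 2 fell. Of the markers of other cells, 3 of 12 for Kupffer cells, 4 of 10 for lymphocytes and 4 of 8 for erythroid cells rose, and 1 erythroid gene fell. The mean of the Kupffer cell markers was 1.11 to 1.87 on the controls, 2.28 and 2.57 on oxaliplatin arrays 1 and 2, which carry the other run name, and 1.58 and 1.43 on oxaliplatin arrays 3 and 4, within the range of the controls. With the first run name alone 1 marker of each of these 3 lists was higher, and the Kupffer cell median moved from 0.49 to 0.01. With 1 array left out, 1 to 3 Kupffer cell markers (1 without control array 1, 3 or 4), 2 to 4 lymphocyte markers (2 without any 1 array other than control 2 or 4) and 2 to 6 erythroid markers were higher (2 without control array 3 or oxaliplatin array 3, and 6 without control array 4). The call of the erythroid gene that fell was lost when any 1 array other than control 2 was left out. Of 15 sinusoidal endothelial markers 2 rose and 3 fell. With 1 array left out 1 to 2 of them were higher and 2 to 3 lower. With the first run name alone 0 were called, and with the run name as covariate 1 was higher and 1 lower. None of 7 neutrophil, 12 stellate or 7 cholangiocyte markers was called (limma; at an unadjusted p below 0.05, 0, 4 and 1). Of 8 intestinal and 8 kidney markers each, 6 were too dim to test, and 1 rose, Lgals4 of the intestinal list (1.57 ± 0.33, adjusted p = 0.0173, limma). The part of these other cells in the member differences was not tested.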

How the data were processed

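Feature Extraction 12.0.3.1 produced the deposited files, per the file headers, whereas the submitters' processing notes name version 10.7 and limma. The deposited processed signal, mean signal and local background are intensity values on a linear scale; the processed signal is corrected for background within the array. The authors' deposited series matrix holds log2 values, which followed the processed signal on each array (r from 0.9995 to 0.99996 across probes); its normalization is not given in the sources used here. The other deposited columns used were spot flags of 0 or 1. Probe coordinates are those of the files (mm9).

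The log2 processed signal was scaled by subtracting each array's 75th percentile over the 38453 non-control probes above background on all 8 arrays, since 27.2% to 40.9% of probes were detected per array. Outlier spots were then removed. Probes above background on at least 4 of 8 arrays were tested (54636). The 2 groups were fitted with limma 3.58.1 (lmFit, then eBayes; R 4.3.3; 6 residual and 2.56 prior degrees of freedom), with Benjamini-Hochberg adjustment over all probes. The fit was checked on simulated data in which 200 of the 54636 probes were changed. Of probes changed by 1 log2 unit 42% were called, and of those changed by 2, 93%. In the real data 8853 probes were called, so these shares need not hold for the member probes. The number of arrays limits the precision. Members' probes were all named. From other lists, names were drawn from the 3 called genes with the smallest adjusted p, or from all where 5 or fewer were called. Not all of these genes are named, and several lists are given as counts alone. The 2 genes outside the Cyp2c family that were most like a called member were also named. Nr1i2, Hnf4a, Alad, Xist and Kdm5d lie outside this rule, as do Cyp2j6, Serpina1a and Ahsg, named because median centring turned them. Cyp2e1 and Fabp1 stand in 2 lists each. Members and lists were chosen with earlier results of these data known.

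Alternatives were another background correction, other scalings, the series matrix, other filters, a variance trend, 1 value per gene, the run name, a replicate block and leaving out each array. No protein sequences were used here.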

Additional observations from a re-analysis of the deposited data

Results flagged for a closer look

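In 3 of the 48 groups of 4 arrays examined for the member probes and the 2 tested relatives, 1 array lay so far from the others that the gap exceeded Dixon's 95% critical share of the group's range; chance gives about 1 in 20 groups. The custom probe of Cyp2c39 read 0.893 on oxaliplatin array 4, below the 3 other oxaliplatin arrays. The catalogue probe of Cyp2c55 read -5.22 on oxaliplatin array 1, below the 3 others. The custom probe of Cyp2c70 read 4.37 on control array 2, below the 3 other controls.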

How the results depend on the processing

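Calls of member probes (0 higher, 3 lower as reported) kept within 1.5 times under quantile normalization and the series matrix values (3 lower each), and the variance trend, the filter on 1 whole group and normexp gave 4 lower. With all probes in the percentile 5 were lower, and with median centring 9, a scaling that moved the median of all tested probes to -0.72. Of those higher, 1 (Cyp2c55) was called with normexp, without a filter, with the filter on all 8 arrays and with the first run name alone (0 lower there); with the run name as covariate only the custom Cyp2c39 probe was called, lower (1 lower). Leaving out 1 array gave 0 to 2 higher and 0 to 4 lower. Median centring turned the direction of Cyp2c29 (-0.39 and -0.26), Cyp2c54 (-0.39 and -0.28), the catalogue probe of Cyp2c39 (-0.24), the custom probe of Cyp2c40 (-0.38), both probes of Cyp2c70 (-0.63 and -0.46) and 2 of Cyp2c37 (-0.68 and -0.62). This scaling lowers every difference by the same 0.74, so the order of the probes cannot change under it. A_51_P498882 of Cyp2c37 also turned with normexp (-0.081), all probes in the percentile (-0.051), quantile normalization (-0.11), the series matrix (-0.14), without control array 4 (-0.11) and without oxaliplatin array 3 (-0.0060; range with 1 array left out -0.11 to 0.17), and A_52_P625249 with normexp (-0.020) and without control array 4 (range with 1 array left out -0.17 to 0.29). A_51_P134142 of Cyp2c70 turned with normexp (-0.034), quantile normalization (-0.15), the series matrix (-0.15) and without control array 2 (range with 1 array left out -0.16 to 0.28). The causes were not tested.

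Over all probes, 5463 were higher and 3390 lower. Normexp gave 9754 and 2923, all probes in the percentile 4053 and 6012, quantile normalization 4466 and 5112, median centring 829 and 37884, and the series matrix, with 29116 probes tested, 2026 and 2435. Without a filter, 27554 and 2916 were called, with the first run name alone 1638 and 977, and with the run name as covariate 2163 and 1080. Leaving out 1 array gave 2802 to 4932 higher and 1475 to 2944 lower.

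The replicate numbers did not pair the arrays: deviations of same-numbered arrays correlated at -0.22, 0.02, -0.08 and -0.16, and none of 8 arrays correlated best with its own number (0 of 8). The replicate block gave 0 higher and 3 lower member probes, and 2662 higher and 1256 lower over all probes. A block for slide was not run, since each slide held 1 group. The comparison of member proteins was not run. Signals near background, as for Cyp2c55, limit precision.

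Over the alternatives other than median centring, the CAR and PXR targets gave 0 to 2 higher and 2 to 9 lower, the regulators 0 to 3 and 0 to 1, the fatty acid list 2 to 8 and 0 to 2, the bile acid list 1 to 4 and 0 to 3, the hepatocyte markers 1 to 7 and 0 (medians 0.02 to 0.36), the Kupffer cell markers 1 to 4 and 0 to 1 (medians 0.01 to 0.67), the lymphocyte markers 1 to 5 and 0, the erythroid markers 1 to 6 and 0 to 1, and the p53 targets 0 to 1 and 10 to 14. Over the same alternatives the sinusoidal endothelial markers gave 0 to 3 higher and 0 to 3 lower. The electron supply and haem list gave 0 to 3 and 0 to 1, and the growth hormone list 0 to 3 and 2. The pericentral markers gave 0 to 2 and 0, and the periportal markers 0 to 3 and 1 to 4. Among called genes of the lists, median centring alone turned directions, those of Cyp2j6, Cyp27a1, Cyp2e1, Pck1, Arg1, Cyp2f2, Serpina1a, Apoa2, Alb, Ahsg, Mrc1 and Clec4f.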
